A study of Drosophila melanogaster with 8 samples.

Results

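Proteasome subunit genes were followed in accessible-chromatin peak lists of Drosophila melanogaster embryos. Members were the protein-coding genes whose symbol begins with Prosalpha, Prosbeta, Rpn or Rpt and a digit, and 48 of 13935 protein-coding genes met this rule. They comprise 7 alpha ring genes, 7 beta ring genes, 6 Rpt ATPase genes, 12 Rpn genes and 16 relatives whose symbols end in R or T, with or without a further digit. A gene was called in a library when at least 1 bp of a peak lay within 250 bp of either end of its annotated span. Gene spans came without strand, so a gene end is named here by coordinate, low or high, and may be the 5′ or the 3′ end.

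The study used ATAC-seq, in which the transposase Tn5 cuts open DNA, on wild-type (WT) and mutant embryos of an early window, 1 to 1.5 h, and a late window, 2.5 to 3 h. IntS11 is the RNA-cleaving subunit of Integrator. The titles of all libraries, WT included, carry the words IntS11 mislocalized, and that the mislocalization belongs to the mutant alone is an inference. The study's text speaks of several mutant lines, and the allele and the line of each library are not given in the labels. Each of the 4 groups had 2 libraries, and the labels do not say whether these were separate collections, so the spread behind every p-value may be technical.

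The 8 lists held 15569 to 25201 peaks. They give positions only, so sequencing depth is unknown, and the lack of a call at a gene does not show closed chromatin. The shortest peak differed between libraries, from 100 bp to 156 bp, and the median peak was 192 bp in both mutant libraries at 1 to 1.5 h against 272 bp or more in every other library. At the IntS11 gene (3R, 29745337 to 29747513, dm6) the low-coordinate end was called in 4 of 4 WT and 0 of 4 mutant libraries, and the high-coordinate end in 0 of 4 WT and 4 of 4 mutant libraries. Of 12 early embryo markers, 11 were called in every library, and slam was the exception. Between 1 and 2 of 7 testis markers, 0 to 4 of 6 follicle cell markers and 0 to 3 of 5 gut markers were called.

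The proteasome degrades proteins that carry ubiquitin chains. Its core particle stacks rings of alpha subunits, which gate the entrance, around rings of beta subunits, some of which hold the proteolytic sites. A regulatory particle caps the core: its Rpt subunits form an ATPase ring that unfolds substrates and threads them inward, and its Rpn subunits bind and remove ubiquitin or hold the particle together. These roles were worked out largely in yeast and in human cells. Eggs are loaded with maternal proteasomes, and turnover of maternal proteins is part of the passage from maternal to zygotic control. Several of the R and T relatives are used in the male germ line of the fly.

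At 1 to 1.5 h, 27 and 29 of the 48 genes were called in the WT libraries and 21 and 18 in the mutant libraries. At 2.5 to 3 h the WT libraries called 32 and 32, and the mutant libraries 29 and 28. The genotypes did not overlap in either window, and the gap was wider in the early window. Over all protein-coding genes the called share was 48.8% and 46.9% in early WT, 34.1% and 30.4% in the early mutant, 49.2% and 48.5% in late WT, and 44.8% and 44.4% in the late mutant. The members' shares, 56.2% and 60.4%, 43.8% and 37.5%, 66.7% and 66.7%, and 60.4% and 58.3% in the same order, were higher in every library.

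The roles differed in how often they were called. All 7 beta ring genes were called in both WT groups and in the late mutant, and 6 of 7 in each early mutant library. Of the 7 alpha ring genes, 5 were called in each early WT library, 4 and 2 in the early mutant, and 6 in each late library of either genotype. Of the 12 Rpn genes, 10 were called in each early WT library and 6 in each early mutant library, then 10 and 11 in late WT and 10 and 9 in the late mutant. Of the 6 Rpt genes, 2 were called in each early WT library and 3 in each early mutant library. All these early mutant Rpt peaks measured 100 bp to 109 bp, below the shortest peaks listed in early WT, 122 bp and 120 bp. The late libraries called 5 and 4 Rpt genes in WT, against 4 and 3 in the mutant. Of the 16 relatives, 3 and 5 were called in early WT, 2 and 1 in the early mutant, 4 and 4 in late WT, and 2 and 3 in the late mutant.

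**Figure D1:**
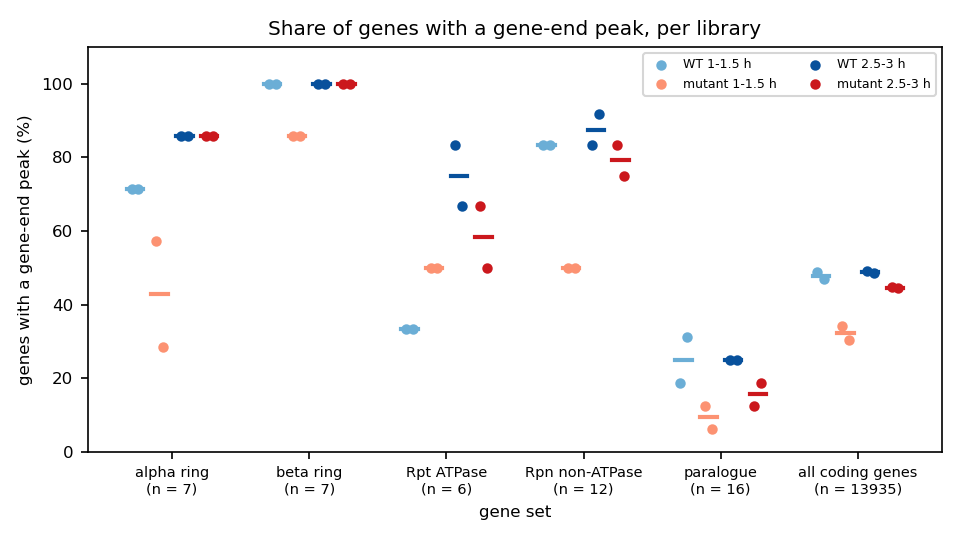
Share of genes with a gene-end peak (%) in each library, for the 5 roles and for all protein-coding genes; points are the 2 libraries of a group and bars their mean. The beta ring genes sit at 100% except in the early mutant, where 6 of 7 were called, and the relatives (marked paralogue) sit at 6.25% to 31.2%.

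Called in all 8 libraries were 14 members, beside 22.1% of all protein-coding genes. They were Prosalpha3 and Prosalpha6 of the alpha ring, every beta ring gene except Prosbeta4, the ATPase gene Rpt5, the Rpn genes Rpn1, Rpn2, Rpn9 and Rpn13, and the relative Prosbeta2R2. In no library were 13 members called, beside 34.6% of all genes. Of these, 11 were relatives: Prosalpha1R, Prosalpha3T, Prosbeta2R1, Prosbeta4R1, Prosbeta4R2, Prosbeta5R1, Prosbeta5R2, Rpt4R, Rpt6R, Rpn12R and Rpn13R. Their nearest peak lay 386 bp to 59957 bp from a gene end. Of these relatives Prosbeta5R2 alone had a peak inside its span, in every WT library and in late mutant replicate 2.

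Prosalpha1 and Rpn8 were the only uncalled members without a suffix. Prosalpha1 (2R, 7827303 to 7828678) encodes an alpha ring subunit, and its nearest peak lay 528 bp to 784 bp away. It lies beside its near copy Prosalpha1R (2R, 7830413 to 7831771), whose nearest peak lay 1142 bp to 1455 bp away, and how reads shared by the copies were placed is not given in the sources used here. Rpn8 (2R, 24400028 to 24404527), partner of the deubiquitinase Rpn11, differed from it in having peaks inside its span in all 8 libraries. These interior peaks began 1867 bp or more from the low-coordinate end. The widest of them measured 661 bp and 887 bp in early WT, 417 bp and 434 bp in the early mutant, 1341 bp and 1358 bp in late WT, and 1464 bp and 1160 bp in the late mutant. They were narrower in both early mutant libraries than in any other, and the late genotypes overlapped.

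**Figure D2:**
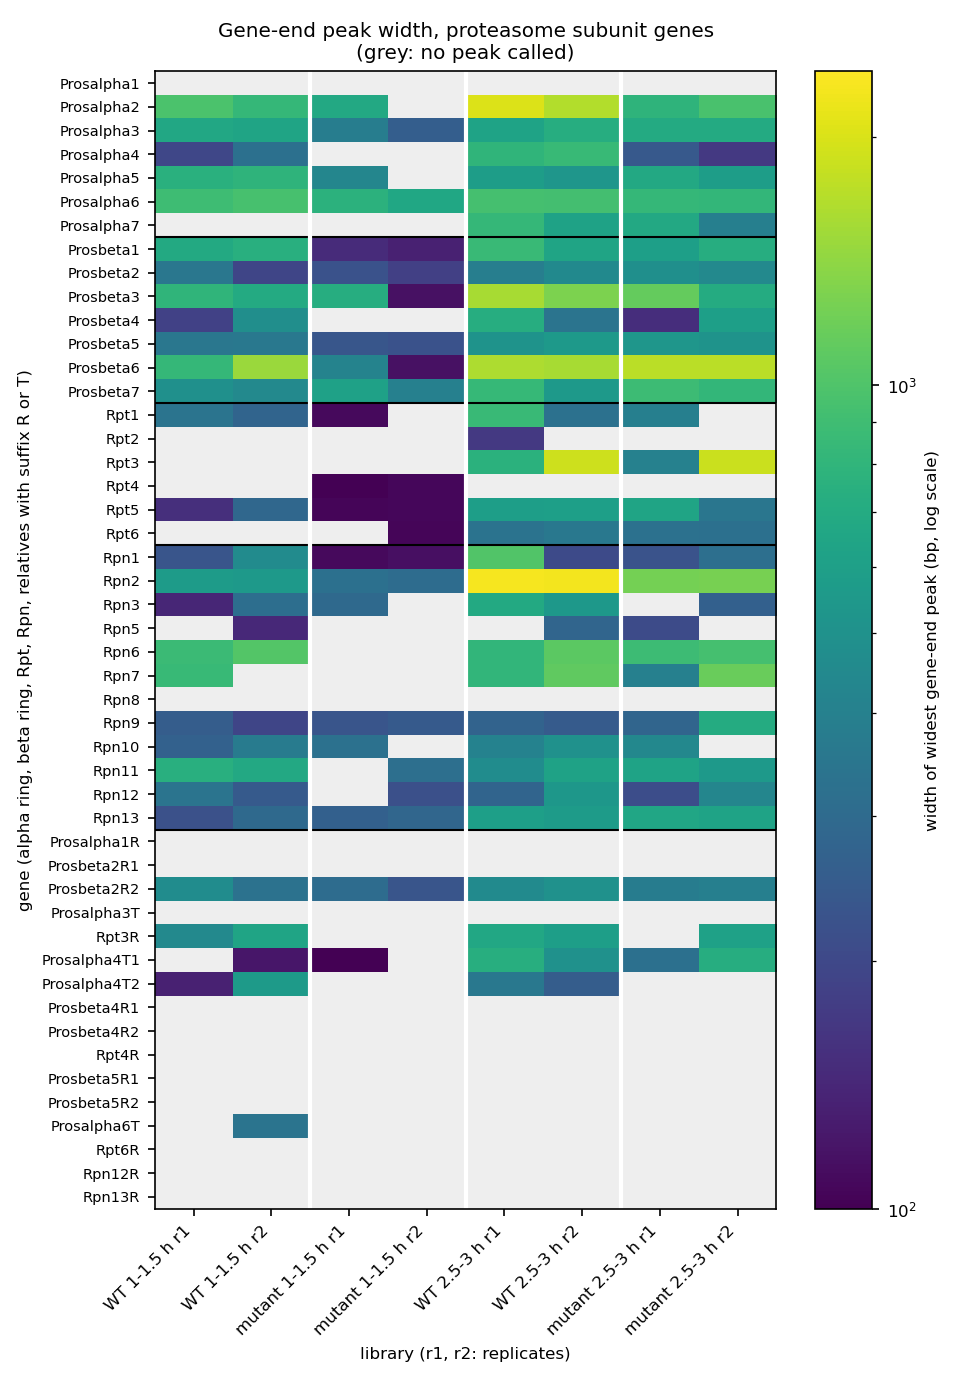
Width in bp (colour, log scale) of the widest gene-end peak of each of the 48 genes (rows, by role) in each of the 8 libraries (columns); grey marks a gene not called. The early mutant columns hold the most grey among the subunits without a suffix, and 11 of the 16 relatives are grey throughout.

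Between genotypes and windows a gene was lost when both libraries of the reference group and neither of the other called it, gained when the calls were the other way round, and kept with calls in all 4 libraries. Each group enters 2 of the 4 comparisons, so the comparisons are not independent. In the early window the mutant lost 5 members relative to WT, beside 9.70% of all genes, and gained 1, beside 0.667%. It kept 14, and the other 28 were called in 1 library of a group or in none. Without replicate 1 of the early mutant, 10 would count as lost and 2 as gained. In the late window the mutant lost 1 member, beside 3.86% of all genes, gained 0, beside 1.61%, and kept 26. Without either late mutant library 3 would count as lost, and without replicate 2 of late WT 2 would. Counts of this kind carry no test, and the lost shares of the members are near the background.

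Rpn6 (2R, 14750166 to 14752910) encodes a scaffold of the regulatory particle's lid. Its gene-end peak measured 873 bp and 1020 bp in early WT, was not called in the early mutant, and measured 814 bp and 1072 bp in late WT and 881 bp and 939 bp in the late mutant. The early mutant libraries nevertheless had peaks inside the gene, of 260 bp and 235 bp in replicate 1 and of 264 bp in replicate 2. The nearer of them ended 432 bp and 408 bp from the high-coordinate end, outside the window, at a place that the WT peaks covered. The high-coordinate end also lies by the neighbour ave, which the same peaks touched in all 6 libraries. With a window of 500 bp, or with peaks anywhere in the gene, Rpn6 counted as kept.

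Prosbeta4 (2L, 16731180 to 16732133), a beta ring gene, had gene-end peaks of 185 bp and 480 bp in early WT and none in the early mutant. Its peaks measured 720 bp and 341 bp in late WT and 152 bp and 600 bp in the late mutant, so the late genotypes overlapped. In late WT replicate 2 the peak lay 247 bp beyond the low-coordinate end, just inside the window. Early mutant replicate 1 had peaks of 187 bp and 536 bp outside the windows, 401 bp from the low-coordinate end and 424 bp from the high-coordinate end, and with a window of 500 bp the gene was not lost.

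Prosalpha4 (X, 16276270 to 16277587), an alpha ring gene, had peaks of 196 bp and 324 bp in early WT and none at a gene end in the early mutant. Its peaks reached 803 bp and 856 bp in late WT and 242 bp and 170 bp in the late mutant. Both late mutant peaks were narrower than both late WT peaks. An interior peak of 184 bp was called in early mutant replicate 2, 415 bp from the high-coordinate end. The early loss of Prosalpha4 held in 2 of 7 alternative settings, and the gene was not lost with a window of 100 bp or 500 bp.

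The other 2 genes lost early were relatives. Rpt3R (3R, 9754735 to 9756510), related to the ATPase gene Rpt3, had peaks of 448 bp and 642 bp in early WT, none within the windows in the early mutant, 669 bp and 595 bp in late WT, and 617 bp in late mutant replicate 2 alone. Every one of these peaks also lay within 250 bp of an end of the neighbour Tti1. Early mutant replicate 2 had a 157 bp peak within the stretch that the early WT peaks covered, 356 bp from the gene. Prosalpha4T2 (2R, 24500780 to 24502277), related to Prosalpha4, was the only member lost in both windows, with peaks of 134 bp and 567 bp in early WT, 359 bp and 255 bp in late WT, and none within the windows in the mutant. The peaks were not at the same place: those of early WT lay by the high-coordinate end and those of late WT by the low-coordinate end. Interior peaks outside the windows were called in 3 of 4 mutant libraries, measuring 357 bp in early replicate 1 and 264 bp and 156 bp in the late replicates. With peaks anywhere in the gene it counted as kept late, and its early loss held in 1 of 7 alternative settings.

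The window decided some of these calls. Late WT replicate 2 called Prosalpha4T2 by a peak 248 bp from the gene, and late mutant replicate 1 had a peak 263 bp away that did not count. Prosalpha6T was called once, in early WT replicate 2, by a peak 245 bp away. Rpn11, the deubiquitinase gene, missed a call in early mutant replicate 1 with a peak 256 bp away.

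Rpt4 (X, 6289470 to 6291245), an ATPase gene, was the member gained by the early mutant. Its peaks measured 100 bp and 106 bp there, and it was called in none of the other 6 libraries. The shortest peaks of those lists were 100 bp and 101 bp, whereas no peak under 122 bp and 120 bp was listed in the early WT libraries, so peaks of this size could not appear there. Below 122 bp were 5 called members in early mutant replicate 1 (Rpt1, Rpn1, Prosalpha4T1, Rpt5 and Rpt4) and 6 in replicate 2 (Prosbeta6, Rpn1, Prosbeta3, Rpt5, Rpt4 and Rpt6). With peaks of at least 200 bp, or with common limits of 160 bp on gaps and peaks, Rpt4 was called in no group.

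From 1 to 1.5 h to 2.5 to 3 h, WT gained 3 members, beside 4.18% of all genes, and lost 0, beside 3.57%. The mutant gained 6, beside 8.53%, and lost 1, Rpt4, beside 0.940%. WT kept 26 and the mutant 14. Without replicate 1 of early WT, 4 members would count as gained in WT and 1 as lost. Prosalpha7 and Rpt3 were gained in both genotypes.

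Prosalpha7 (2R, 9846636 to 9847836), an alpha ring gene, was called in none of the 4 early libraries. Its late peaks measured 834 bp and 623 bp in WT and 684 bp and 394 bp in the mutant, and the genotypes overlapped. Early WT had interior peaks of 315 bp and 292 bp that ended 342 bp and 340 bp from the high-coordinate end. Early mutant replicate 1 had one of 157 bp, 458 bp from that end.

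Rpt3 (X, 11125101 to 11126785), an ATPase gene, was likewise called only late, at 760 bp and 1892 bp in WT and 404 bp and 1870 bp in the mutant. The replicates of each genotype differed more than the genotypes did. In all 4 early libraries a peak of 510 bp to 642 bp ended 295 bp to 321 bp short of the low-coordinate end, just outside the window. With a window of 500 bp both Prosalpha7 and Rpt3 were kept in WT, and 0 members were gained or lost there.

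Rpt6 (X, 21316052 to 21317663), an ATPase gene, was the third gained in WT. Its peaks were 336 bp and 357 bp in late WT and 328 bp and 322 bp in the late mutant. Within the windows there was none in early WT and a 105 bp peak in early mutant replicate 2. Outside them, early WT replicate 1 had a 181 bp interior peak 289 bp from the high-coordinate end. Replicate 2 had a 536 bp peak 455 bp from that end. With a window of 500 bp Rpt6 was kept in WT. The late peaks of both genotypes covered the low-coordinate end, and both late WT peaks were wider than both late mutant peaks.

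Of the 6 genes gained in the mutant, Prosbeta4, Rpn6 and Prosalpha4 were those lost early, and Rpn7 joined them. The gain held in 1 of 7 alternative settings for Prosbeta4, 3 for Prosalpha4, 4 for Rpn6 and Prosalpha7, and 6 for Rpn7 and Rpt3. Rpn7 (3R, 22460662 to 22462054) encodes a lid subunit and was called at 852 bp in early WT replicate 1, in no other early library, at 813 bp and 1110 bp in late WT, and at 399 bp and 1156 bp in the late mutant. Early WT replicate 2 had a 774 bp interior peak 305 bp from the low-coordinate end, whereas the peak of replicate 1 lay 247 bp from it.

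**Figure D3:**
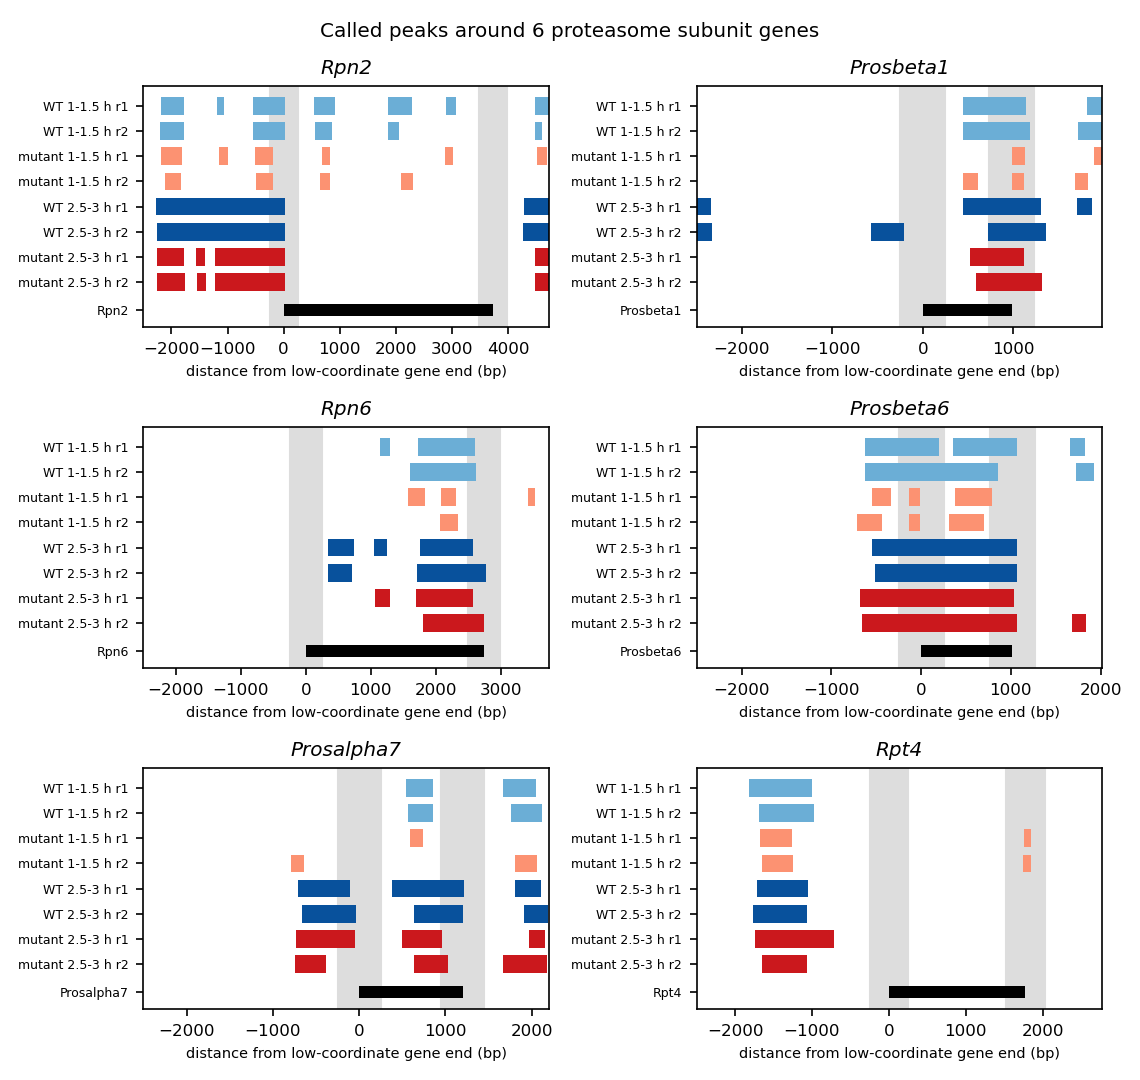
Called peaks (coloured bars) in each library around Rpn2, Prosbeta1, Rpn6, Prosbeta6, Prosalpha7 and Rpt4; the x axis is the distance in bp from the low-coordinate gene end, the black bar is the gene and grey bands are the 250 bp windows. The Rpn2 peak ends near 0 in 6 libraries and extends left furthest in late WT, and Rpn6 has early mutant peaks that stop short of the grey band.

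Widths were compared on the log2 scale by a limma model over the 3086 genes called in all 8 libraries, with Benjamini-Hochberg adjustment over these genes and a threshold of 0.05. The 14 members that passed this filter are not all members, and the 34 others are described only by their calls. In the early window 6 of the 14 were narrower in the mutant, beside 46.0% of all genes tested, and 0 were wider, beside 1.07%. The median log2 difference was -0.75 over the 14 members and -0.78 over all genes tested. Of the 3086 genes, 2788 had a negative early difference. The called values below are therefore also given after widths were centred on each library's median. Centring left a median early difference of 0.16 over all genes, so the centred early values lean towards wider.

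Prosbeta1 (2R, 16013805 to 16014787) encodes the caspase-like catalytic subunit. Its peak measured 690 bp and 743 bp in early WT, 147 bp and 134 bp in the early mutant, 858 bp and 642 bp in late WT, and 600 bp and 725 bp in the late mutant. Only the early mutant libraries stood apart, and the late genotypes overlapped. The early log2 difference was -2.35 ± 0.19 (SE, n = 2 against 2, limma adjusted p = 0.000428), and -1.41 after centring (adjusted p = 0.00369). The early mutant gene-end peaks began at the high-coordinate end, at 16014786 and 16014787, whereas those of early WT began inside the gene at 16014250 and 16014251. In early mutant replicate 2 a further peak touched the gene, outside the windows, so 2 peaks touched the gene there. With a window of 500 bp the early difference was -2.20. The outer edges of the early gene-end peaks lay close together, at 16014920 to 16014993. The widest gene-end peak of all 8 libraries also touched the neighbour Rrp42.

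Rpn2 (3R, 29153524 to 29157255) encodes the large scaffold subunit on which the ubiquitin receptor Rpn13 docks. Its peak measured 572 bp and 558 bp in early WT, 322 bp and 307 bp in the early mutant, 2291 bp and 2276 bp in late WT, and 1231 bp and 1245 bp in the late mutant. No 2 groups overlapped, and replicates differed by 15 bp or less. The early difference was -0.85 ± 0.08 on the log2 scale (SE, n = 2 against 2, limma adjusted p = 0.000751), but it was 0.09 after centring (adjusted p = 0.477). The late difference was -0.88 ± 0.08 (limma adjusted p = 0.00448) and -0.74 after centring (adjusted p = 0.0107). It was the only member narrower in the late mutant, beside 3.53% of all genes, and 0 were wider, beside 2.30%. The late median log2 difference was -0.10 over the 14 members and -0.085 over all genes. Without WT replicate 1 of the late window its limma adjusted p was 0.0509.

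The place of the Rpn2 peak shows what these widths measured. In late WT, late mutant and early WT it ended at 29153539 to 29153546, 15 bp to 22 bp inside the gene. In the early mutant it ended at 29153332 and 29153334, short of the gene. The other edge lay at 29151256 and 29151271 in late WT and at 29152309 and 29152298 in the late mutant. The peak therefore spread away from Rpn2, over the neighbour Slbp (3R, 29152074 to 29153266), whose protein binds histone mRNA stem-loops, and was counted for Slbp in all 8 libraries. In late WT it also reached the gene end of eIF2D (3R, 29149896 to 29151794). Late mutant lists had further peaks over that stretch, separated by gaps. Rpn2 ends 588082 bp from the start of IntS11 on the same arm.

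Prosbeta6 (3L, 16609400 to 16610418), a beta ring gene without catalytic activity of its own, had the widest mean peak of the 14, at 1189 bp. It measured 831 bp and 1486 bp in early WT, 413 bp and 116 bp in the early mutant, 1624 bp and 1590 bp in late WT, and 1723 bp and 1727 bp in the late mutant. The early mutant lay below early WT and the late mutant above late WT, with no overlap in either window. The early difference was -2.34 ± 0.61 on the log2 scale (SE, n = 2 against 2, limma adjusted p = 0.0256), and -1.41 after centring (adjusted p = 0.105). Without any 1 library other than those of the early mutant, the limma adjusted p was 0.0513 to 0.108. The late difference was 0.10 ± 0.61 (limma adjusted p = 0.999), and did not pass after centring either (adjusted p = 0.917). Single peaks covered the whole gene in all 4 late libraries, whereas the early mutant peak of replicate 1 at the low-coordinate end measured 119 bp and was separate from that of 413 bp.

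Prosbeta5 (2R, 10819978 to 10821178) encodes the chymotrypsin-like catalytic subunit. Its widest peak measured 353 bp and 359 bp in early WT, 233 bp and 222 bp in the early mutant, 512 bp and 560 bp in late WT, and 533 bp and 513 bp in the late mutant. The early difference of -0.65 ± 0.11 (SE, n = 2 against 2, limma adjusted p = 0.00642) turned to 0.29 after centring (adjusted p = 0.131), and was -0.31 (adjusted p = 0.382) for the summed width of all gene-end peaks. The widest peak was not the same one throughout, since it lay at the low-coordinate end in early WT and at the high-coordinate end in the early mutant. The low-coordinate peak alone measured 353 bp and 359 bp in early WT and 177 bp and 147 bp in the early mutant, then 422 bp and 430 bp in late WT and 473 bp and 425 bp in the late mutant. Its early groups did not overlap and its late groups did.

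Prosalpha3 (2R, 20994900 to 20996118) and Prosalpha6 (2L, 10221351 to 10222546) encode alpha ring subunits. Prosalpha3 measured 676 bp and 638 bp in early WT, 385 bp and 258 bp in the early mutant, 629 bp and 724 bp in late WT, and 694 bp and 697 bp in the late mutant. Its early difference was -1.06 ± 0.21 (SE, n = 2 against 2, limma adjusted p = 0.0103), and -0.12 after centring (adjusted p = 0.657). Prosalpha6 measured 893 bp and 948 bp in early WT, 768 bp and 667 bp in the early mutant, 936 bp and 929 bp in late WT, and 830 bp and 825 bp in the late mutant. Its early difference was -0.36 ± 0.10 (limma adjusted p = 0.032). Without any 1 library other than early mutant replicate 1, the limma adjusted p was 0.0521 to 0.096. After centring it was 0.58 (adjusted p = 0.00907), so the Prosalpha6 peak narrowed less than the median gene and its direction depends on the scale.

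Centred widths gave 4 of the 14 members past the threshold in the early window, 3 wider and 1 narrower. Of all genes, 1229 of 3086 passed in either direction after centring. The wider were Prosalpha6, Prosbeta7 and Rpn13, and the narrower was Prosbeta1. Rpn13, a ubiquitin receptor, measured 221 bp and 297 bp in early WT and 266 bp and 285 bp in the early mutant. Prosbeta7, a beta ring gene, measured 491 bp and 448 bp in early WT and 620 bp and 398 bp in the early mutant. Uncentred, neither log2 width differed past the threshold, with limma adjusted p of 0.621 for Rpn13 and 0.812 for Prosbeta7.

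From the early to the late window, 3 of the 14 members were wider in WT, beside 13.6% of all genes, and 0 were narrower, beside 0.907%. In the mutant 8 of 14 were wider, beside 65.3%, and 0 were narrower, beside 0.0648%. The median log2 difference was 0.54 over members and 0.26 over all genes in WT, and 1.22 and 1.09 in the mutant. Centred widths gave 1 wider (Rpn2) and 0 narrower in WT, and 2 wider (Rpn2 and Prosbeta1) and 2 narrower (Prosalpha6 and Prosbeta2R2) in the mutant. These centred counts are given without a share over all genes, and the centred values over time lean towards narrower. Without replicate 1 of late WT, 1 member was wider in WT.

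Rpn2 widened in both genotypes, by 2.02 ± 0.08 in WT (limma adjusted p = 0.000401) and 1.98 ± 0.08 in the mutant (limma adjusted p = 7.27e-05). After centring these were 1.60 and 0.77, both past the threshold. Rpn13 reached 602 bp and 572 bp in late WT and 658 bp and 632 bp in the late mutant, a rise of 1.20 ± 0.17 in WT (limma adjusted p = 0.00761) and 1.23 ± 0.17 in the mutant (limma adjusted p = 0.002). Its late WT peak spread into Rpn13 and its late mutant peak spread away from it, over CtsL1. The widest Prosbeta5 peak was wider late by 0.59 ± 0.11 in WT (limma adjusted p = 0.0221) and 1.20 ± 0.11 in the mutant (limma adjusted p = 0.000531). In WT this set the low-coordinate peak of the early window against the high-coordinate peak of the late window. With a window of 100 bp the WT value was 0.26 (limma adjusted p = 0.244), and for summed width the limma adjusted p was 0.0761. In WT the call of Rpn13 was lost without late WT replicate 1 (limma adjusted p = 0.0581), and that of Prosbeta5 without any 1 of the WT libraries (0.0591 to 0.122). After centring, neither Rpn13 nor Prosbeta5 passed in either genotype, and the Prosbeta5 value in the mutant was -0.01.

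The other 5 members that widened in the mutant were Prosbeta1, Prosalpha3, Prosbeta2, Prosbeta6 and Rpt5. Prosbeta6 had the largest difference of the 14, 2.98 ± 0.61 (limma adjusted p = 0.00875), and 1.77 after centring (adjusted p = 0.0589). Prosbeta1 rose by 2.23 ± 0.19 (limma adjusted p = 0.000383). Prosbeta1 alone of these 5 still passed after centring, at 1.02 (adjusted p = 0.00883). Prosalpha3 rose by 1.14 ± 0.21 (limma adjusted p = 0.00576), and was at -0.07 after centring. Rpt5 (3R, 23752876 to 23754623), an ATPase gene, measured 154 bp and 288 bp in early WT, 105 bp and 106 bp in the early mutant, 592 bp and 598 bp in late WT, and 640 bp and 348 bp in the late mutant. Its rise in the mutant was 2.16 ± 0.39 (limma adjusted p = 0.00556), and 0.95 after centring (adjusted p = 0.117). Its difference in WT, 1.498 ± 0.389, had a limma adjusted p of 0.0602. Prosbeta2 (3L, 14999951 to 15001319), the trypsin-like catalytic subunit gene, measured 351 bp and 195 bp in early WT, 223 bp and 183 bp in the early mutant, 387 bp and 451 bp in late WT, and 489 bp and 447 bp in the late mutant. Its rise in the mutant was 1.21 ± 0.30 (limma adjusted p = 0.0157), and 0.0004 after centring. Without early mutant replicate 2 or either late mutant library, its limma adjusted p was 0.0557 to 0.0752. Rpn9 (3R, 23731375 to 23733462), a lid gene, had the narrowest mean peak of the 14, at 304.8 bp, and passed in no contrast. It measured 256 bp and 194 bp in early WT, 231 bp and 247 bp in the early mutant, 275 bp and 249 bp in late WT, and 281 bp and 705 bp in the late mutant.

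**Figure D4:**
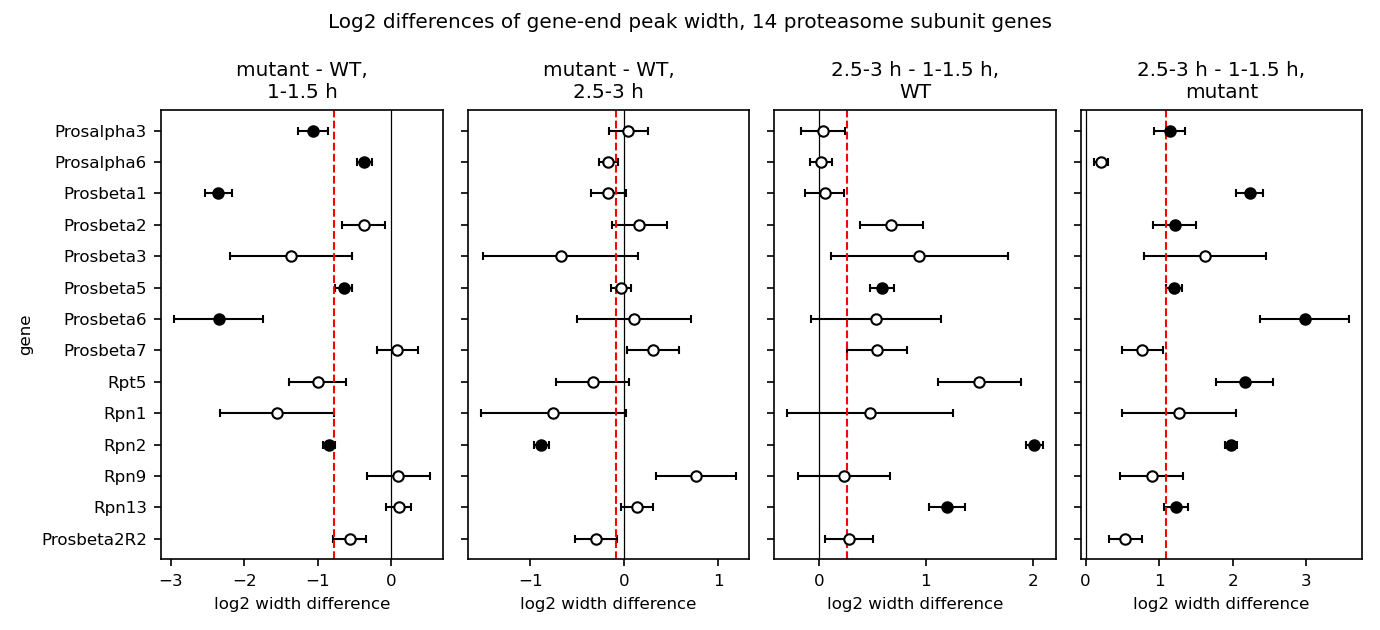
Log2 difference of gene-end peak width with its SE (limma, 2 libraries against 2) for the 14 members called in all 8 libraries, in 4 comparisons; filled points passed an adjusted p of 0.05 and the red dashed line is the median of all 3086 genes. In the early window 6 points are filled, all left of 0, of which 3 lay above 0 after centring, and in the late window Rpn2 is the only filled point.

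The difference between the genotype contrasts of the windows was tested in the same model. The mutant-minus-WT difference was higher late than early for 3 of the 14 members, beside 24.3% of all genes, and lower for 0, beside 1.43%. These were Prosbeta1 at 2.18 ± 0.26 (limma adjusted p = 0.00363), Prosalpha3 at 1.10 ± 0.29 (adjusted p = 0.0446) and Prosbeta5 at 0.61 ± 0.16 (adjusted p = 0.04). Of these, Prosbeta1 alone passed in every fit that left out 1 library: the adjusted p reached 0.132 for Prosbeta5 and 0.135 for Prosalpha3 without late WT replicate 1. Without early mutant replicate 1, 6 members passed. The median was 0.64 over members and 0.65 over all genes. After centring Prosbeta1 passed (1.38, adjusted p = 0.0244), Prosalpha3 did not (0.31, adjusted p = 0.488), and Prosbeta5 turned to -0.19 (adjusted p = 0.544). Centred widths also placed 2 members lower, Prosalpha6 at -0.61 (adjusted p = 0.0441) and Rpn2 at -0.84 (adjusted p = 0.0154). No centred share over all genes is given beside them, and the centred values lean towards lower here. Uncentred, neither passed: Prosalpha6 was at 0.19 ± 0.14 (limma adjusted p = 0.368) and Rpn2 at -0.04 ± 0.11 (limma adjusted p = 0.823).

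Whether the widths of both libraries of a group lay apart from those of the other was also counted over the kept genes. In the early window 9 of 14 members were narrower in both mutant libraries, beside 75.9% of kept genes, and 0 were wider, beside 4.19%. In the late window 7 of 26 were narrower, beside 44.6%, and 4 were wider, beside 15.3%. The narrower were Prosalpha2, Prosalpha4, Prosalpha6, Prosbeta3, Prosbeta2R2, Rpt6 and Rpn2, and the wider were Prosalpha5, Prosbeta6, Rpn9 and Rpn13. Prosalpha2, an alpha ring gene, measured 2037 bp and 1674 bp in late WT against 787 bp and 965 bp in the late mutant. Over time 12 of 26 kept members were wider in WT, beside 55.2%, and 2 (Rpn11 and Prosalpha5) were narrower, beside 10.9%. In the mutant 13 of 14 were wider, beside 90.3%, and 0 were narrower, beside 0.366%. All these shares were at or below the background except those for the 4 wider late genes and the mutant over time, which were close to it.

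Many of these peaks lie between close neighbours and count for both. For 13 of the 35 members called at least once, the widest gene-end peak lay within 250 bp of another gene's end. It was the same other gene in every library with a call: ave at Rpn6, Rrp42 at Prosbeta1 and Slbp at Rpn2 are examples. For 8 called members, among them Rpn1, Prosbeta7, Rpn11 and Rpt6, the widest peak of no library lay that close to another gene end.

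Genes that work with the proteasome were followed as 28 further genes: ubiquitin supply and delivery, assembly and regulation, and the COP9 signalosome, a complex that resembles the lid. The early mutant lost 5 and kept 14 of them, beside 9.70% of all genes lost. The lost were Ubi-p63E, a polyubiquitin gene, Npl4, a cofactor of the segregase TER94, Sem1, a small lid subunit, maf-S, a partner of the transcription factor cnc, and CSN8. The late mutant lost 3, Ubi-p63E, maf-S and ntc, and kept 20, beside 3.86% of all genes lost. Ubi-p63E measured 856 bp and 440 bp in early WT and 329 bp and 450 bp in late WT, and was called in 0 of 4 mutant libraries. The small maf-S peaks measured 178 bp and 137 bp in early WT and 245 bp and 265 bp in late WT. Over time WT gained 3, ntc, CSN1b and CSN5, beside 4.18% of all genes, and the mutant gained 4, Npl4, Sem1, CSN1b and CSN8, beside 8.53%. PI31, Keap1 and CSN1a were called in no library.

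In the width model 14 of these genes were tested, and 6 were narrower in the early mutant, beside 46.0% of all genes, and 0 in the late mutant, beside 3.53%. The 6 were the proteasome deubiquitinase genes Usp14 and Uch-L5, the core assembly chaperone gene Pomp, the TER94 cofactor gene p47, cnc and the polyubiquitin gene Ubi-p5E. Pomp measured 675 bp and 629 bp in early WT, 207 bp and 221 bp in the early mutant, 616 bp and 616 bp in late WT, and 589 bp and 591 bp in the late mutant. After centring, Pomp (-0.67, adjusted p = 0.00985) and p47 (-0.95, adjusted p = 0.0113) still passed as narrower. Usp14, Uch-L5, cnc and Ubi-p5E did not, with Ubi-p5E at 0.41 (adjusted p = 0.0541), and Uba1 and Ufd1 passed as wider. The uncentred early difference of Pomp was -1.61 ± 0.11 (SE, n = 2 against 2, limma adjusted p = 0.000257), and it differed between windows by 1.54 ± 0.15 (limma adjusted p = 0.00199). p47 was the other gene that differed between windows, beside 24.3% of all genes, and both passed after centring (adjusted p = 0.0407 for Pomp and 0.016 for p47), with Uba1 then lower late than early (-0.77, adjusted p = 0.0189). Over time 2 were wider in WT (Uba1, the ubiquitin-activating enzyme gene, and Uch-L5), beside 13.6% of all genes, and 9 in the mutant (Usp14, Pomp, p47, Uba1, Uch-L5, CSN3, Ubi-p5E, REG and Ubqn), beside 65.3%. After centring, which leans towards narrower over time, none of the 14 passed as wider over time in either genotype. In WT p47 passed as narrower (-1.13, limma adjusted p = 0.0204). In the mutant Uba1 (-0.88, limma adjusted p = 0.00245), Ufd1 (-0.99, limma adjusted p = 0.00437) and Ubqn (-0.69, limma adjusted p = 0.0217) did.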

How the data were processed

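The deposited peak lists hold 3 columns per peak, chromosome, start and end, so the deposited unit is position in bp, called per library by the authors, with no score or count. Per the submitters' processing notes, Trimmomatic 0.39, Bowtie2 2.2.5, SAMtools 1.18, MACS2 2.2.7.1, deepTools 3.5.1 and the dm6 build were used; their settings and any transposase shift were not given in the sources used here. Groups came from the titles. Gene spans came from a RefSeq table of the Release 6 assembly, and all symbols of members were read from it. The widest peak within 250 bp of a gene end was taken per gene and library. Widths were compared with limma 3.58.1 (R 4.3.3, trend) over 3086 genes, adjusted by Benjamini-Hochberg, and the procedure was tested on simulated data. Alternatives changed the window, peak minimum, overlap, scaling, filter, model and libraries used.

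Members, lists and rules were chosen with earlier results of these data known. Members named with values were those lost or gained, up to 10 per contrast past 0.05 by p, and those with the widest and narrowest mean peak. Others singled out (Prosalpha1, Rpn8, Prosalpha2, Prosbeta7, Prosalpha6T, Rpn11, Prosbeta5R2) were chosen after their values were seen. Libraries with the same replicate number were not treated as pairs in the main model. Deviations of their log2 widths from the group means correlated at -0.00986 to 0.0576. Such correlations cannot show whether these libraries were collected or processed together, and the labels do not say. The permutation test planned for the number of called members per library was not run. With 2 libraries per group its smallest possible p was above 0.05, and the members were chosen with results known. Promoter motifs were not analysed here. Of the listed pathway symbols, Ecm29 was not matched.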

Additional observations from a re-analysis of the deposited data

Results flagged for a closer look

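The difference between mutant and WT widths differed between the windows for 3 members in the test of that difference, given as the late minus the early log2 difference. It was 0.6121 for Prosbeta5 (limma adjusted p = 0.04), 2.1807 for Prosbeta1 (limma adjusted p = 0.00363) and 1.1027 for Prosalpha3 (limma adjusted p = 0.0446). In both early mutant libraries each of these peaks was narrower than in both early WT libraries, and the late genotypes overlapped for all 3.

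Prosbeta6 stood out because its genotypes lay apart in opposite directions, narrower in both early mutant libraries and wider in both late mutant libraries. Its difference of differences was 2.4463, and the test of it did not pass (limma adjusted p = 0.0932).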

How the results depend on the processing

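For members lost or gained, a window of 500 bp gave 2 early, 0 late, 0 in WT over time and 1 in the mutant over time, against 6, 1, 3 and 7 at 250 bp. A window of 100 bp gave 3 late and 7 in WT over time, an overlap of 50 bp gave 0 and 6, and peaks anywhere in the gene gave 0 and 0. Lists of equal length gave 3 early. The share over all genes was not worked out under these settings, so these counts have no background. Separate gene ends, chosen after seeing the data, gave 3 late and 8 in WT over time. Leaving out 1 library gave 7 to 12 early, 1 to 3 late, 3 to 5 in WT over time and 8 to 10 in the mutant over time.

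The mean number of called members, mutant minus WT, was -8.5 early and -3.5 late. Early it was -6.0 at 500 bp, -11.0 with peaks of at least 200 bp, -12.0 with common limits of 160 bp and -5.5 with lists of equal length. Late it was -6.0 at 100 bp, -2.0 at 500 bp and -4.5 with lists of equal length. It stayed negative without any 1 library, at -10.0 to -7.0 early and -4.0 to -3.0 late.

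In the width model 6, 1, 3, 8 and 3 members passed early, late, in WT over time, in the mutant over time and for the difference between windows. The number of genes tested changed with the setting. A window of 500 bp gave 11 of 21 members early, beside 2124 of 4306 genes. At 250 bp it was 6 of 14, beside 1454 of 3086. A window of 100 bp, with 7 members tested, gave 0 late, 0 in WT and 4 in the mutant over time. Fitting the 4 libraries of a comparison alone gave 3 of 14 early, beside 983 of 3314 genes, and 2 late. Genes called in at least 2 libraries, with a pseudocount of 100 bp, put 33 members to the test. They gave 10 early, beside 2654 of 7963 genes, 2 late, 7 in WT and 15 in the mutant over time. In the mutant over time, peaks of at least 200 bp (7 members tested), common limits (9) and centring (14) gave 4 each. Lists of equal length (9) gave 5. Centring gave 1 in WT over time. Leaving out 1 library gave 4 to 8, 0 to 2, 1 to 4, 7 to 12 and 1 to 6; the lone library of a group is then assumed to vary like the other groups. The replicate block gave 5, 1, 2, 9 and 1.

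Of 389 repeats of 21 named width results, 320 kept direction and call, 63 kept direction alone and 6 reversed. All 6 reversals came with centring: early Prosalpha6 at 0.5764, Prosbeta5 at 0.2924 and Rpn2 at 0.0933, in the mutant over time Prosbeta5 at -0.0091 and Prosalpha3 at -0.0682, and between windows Prosbeta5 at -0.1856. With the median difference of all genes subtracted instead, early Prosalpha6 (0.4171) and Prosbeta5 (0.1331) and Prosbeta5 between windows (-0.0387) also reversed. Early Rpn2 (-0.066), and Prosbeta5 (0.1145) and Prosalpha3 (0.0554) in the mutant over time, then kept their direction. The alternative limited to the 5′ end was not run, because the gene table gives no strand. Depth is unknown, so a gene not called may lie below a library's threshold. The cause of the other changes was not tested.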

Other observations

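A few genes used as markers of other tissues had gene-end peaks in some groups. The vitelline membrane gene Vm26Ab measured 594 bp and 497 bp in early WT, 400 bp and 504 bp in the early mutant and 645 bp and 425 bp in the late mutant, and was not called in late WT. The chorion gene Cp15 measured 348 bp and 256 bp in early WT, 189 bp in early mutant replicate 1 alone and 186 bp and 249 bp in the late mutant, and was not called in late WT. The testis gene fzo measured 387 bp and 330 bp in early WT, 605 bp and 570 bp in late WT and 351 bp and 434 bp in the late mutant, and was not called in the early mutant. Whether these peaks bear on those at the proteasome genes was not tested.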
